A study of Mus musculus with 3 samples.

Results

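TBX5 binding was examined at Meis1, Meis2, Meis3, Pbx2 and Pbx3, which encode homeodomain transcription factors. A peak was taken as belonging to a gene if its summit, the position of highest signal, lay in the RefSeq body of the gene or within 100 kb of either end. By this rule 19 of the 12436 TBX5 peaks in the deposited list belonged to the 5 genes, and no peak was shared by 2 of them. The data are chromatin immunoprecipitation and sequencing (ChIP-seq) of whole E14.5 hearts of the outbred mouse stock CD-1, with no mutation or treatment named in the labels. An antibody to TBX5, a T-box factor of the heart and forelimb, was used on 2 biological replicates, and 1 input sample held chromatin that was not precipitated. Peaks were called once on the pooled replicates, so no value has a spread between hearts, and no comparison of conditions exists. In a whole organ, binding in fewer cells and weaker binding per cell cannot be told apart.

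MEIS and PBX proteins belong to the TALE class of homeodomain factors, named for extra residues in a loop of the homeodomain. A MEIS protein and a PBX protein bind each other and DNA together, often with HOX proteins as further partners, and the pairing helps to keep PBX in the nucleus. In mice Meis1 is needed for normal septation and outflow tract formation, and in the postnatal heart it is known as a brake on cardiomyocyte division. Meis2 acts in neural crest that contributes to the outflow tract, and PBX factors take part in outflow tract patterning.

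Promoter sequences are shown for Meis1 and Meis2, the genes among the 5 with a peak in the authors' promoter class (summit within 2000 bp of a start) at a start of their own, and for 2 noncoding neighbours of theirs, to set binding beside gene starts. No peak overlapped the Meis1 and Meis2 windows themselves. RefSeq (GRCm38.p6, the assembly that mm10 names) gave windows from 250 bases before to 50 bases after a listed start for 4 of the 5 genes (none for Pbx3). The lines below give the windows of Meis1 (chr11:19018920-19019219, minus strand) and Meis2 (chr2:116064570-116064869, minus strand). They also give those of 2 long noncoding RNA genes whose windows a peak overlapped, 8430419K02Rik beyond the 3′ end of Meis1 (chr11:18877561-18877860, minus strand) and G630016G05Rik at the 5′ end of Meis2 (chr2:116066975-116067274, plus strand). Each is written 5′ to 3′ on the strand of its gene, and capitals mark a match to 1 of the motifs named after them.
Meis1: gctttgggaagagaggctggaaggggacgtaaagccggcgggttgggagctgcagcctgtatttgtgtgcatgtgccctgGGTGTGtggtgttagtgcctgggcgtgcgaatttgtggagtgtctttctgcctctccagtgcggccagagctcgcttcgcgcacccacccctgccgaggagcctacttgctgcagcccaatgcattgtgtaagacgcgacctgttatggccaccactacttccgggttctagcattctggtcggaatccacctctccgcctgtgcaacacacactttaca
Meis2: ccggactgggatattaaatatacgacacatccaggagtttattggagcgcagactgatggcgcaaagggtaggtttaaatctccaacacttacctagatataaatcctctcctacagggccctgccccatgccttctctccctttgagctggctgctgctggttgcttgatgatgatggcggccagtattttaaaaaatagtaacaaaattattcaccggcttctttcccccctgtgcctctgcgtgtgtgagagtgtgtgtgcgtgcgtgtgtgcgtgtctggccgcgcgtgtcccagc
8430419K02Rik: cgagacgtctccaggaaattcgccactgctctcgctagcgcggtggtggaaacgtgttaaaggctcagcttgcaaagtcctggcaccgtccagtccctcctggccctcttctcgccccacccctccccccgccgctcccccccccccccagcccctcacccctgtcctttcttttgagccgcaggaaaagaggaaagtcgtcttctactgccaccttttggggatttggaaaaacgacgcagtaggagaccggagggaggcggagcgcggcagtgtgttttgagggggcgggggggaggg
G630016G05Rik: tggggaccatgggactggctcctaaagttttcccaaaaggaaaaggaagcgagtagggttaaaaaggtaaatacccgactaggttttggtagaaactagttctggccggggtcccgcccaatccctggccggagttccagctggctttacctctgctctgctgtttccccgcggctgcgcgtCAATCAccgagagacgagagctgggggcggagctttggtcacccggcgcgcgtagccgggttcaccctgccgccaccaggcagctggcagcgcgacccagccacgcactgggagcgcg

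Both strands were searched for the T-box core motif, spelled GGTGTG. The MEIS site was spelled TGACAG. The core motif of PBX was spelled TGATTG, and a GATA site, for comparison, AGATAA. No 2 matches overlapped in the printed windows. The capitals in the Meis1 window are GGTGTG, whose first letter stands 170 bases before the start. Those in the G630016G05Rik window are CAATCA, the PBX motif on the other strand. No match to the 4 motifs stood in the Meis2 and 8430419K02Rik windows. The remaining windows were those of Meis3 and Pbx2 and of Napa, Kptn and Inafm1, neighbours of Meis3 that a peak overlapped. Over all 9, the T-box motif was in 2 (Meis1 and Pbx2), the PBX motif in 2, the MEIS site in 1 and the GATA site in 0. Among all 32851 RefSeq windows these motifs stood in 19.05%, 14.04%, 19.2% and 11.2%. The matches are a description of letters and not of bound sites.

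The genes differed in how many summits they held (see the plot of summits along each gene). Meis1 had 7, Meis2 6, Meis3 4, Pbx2 1 and Pbx3 1. All 5 thus had a summit within 100 kb, as did 63.7% of the 21631 protein-coding genes. With 10 kb in place of 100 kb, 4 genes had one (all coding genes 29.9%), and 3 had one inside the body (19.2%). The bodies of Meis1, Meis2 and Pbx3 span 139.2, 206.3 and 200.6 kb and those of Meis3 and Pbx2 only 12.5 and 5.14 kb, so a window says different things for the long and the short genes. Per Mb of window there were 20.6 summits for Meis1 (exact 95% Poisson interval 8.30 to 42.5), 14.8 for Meis2 (5.42 to 32.1), 18.8 for Meis3 (5.13 to 48.2), 4.87 for Pbx2 (0.123 to 27.2) and 2.50 for Pbx3 (0.0632 to 13.9). Neighbours in this order, and also its ends, had intervals that overlapped. The 5 windows together held 12.2 summits per Mb (7.32 to 19.0), and all windows of coding genes merged held 5.97.

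**Figure D1:**
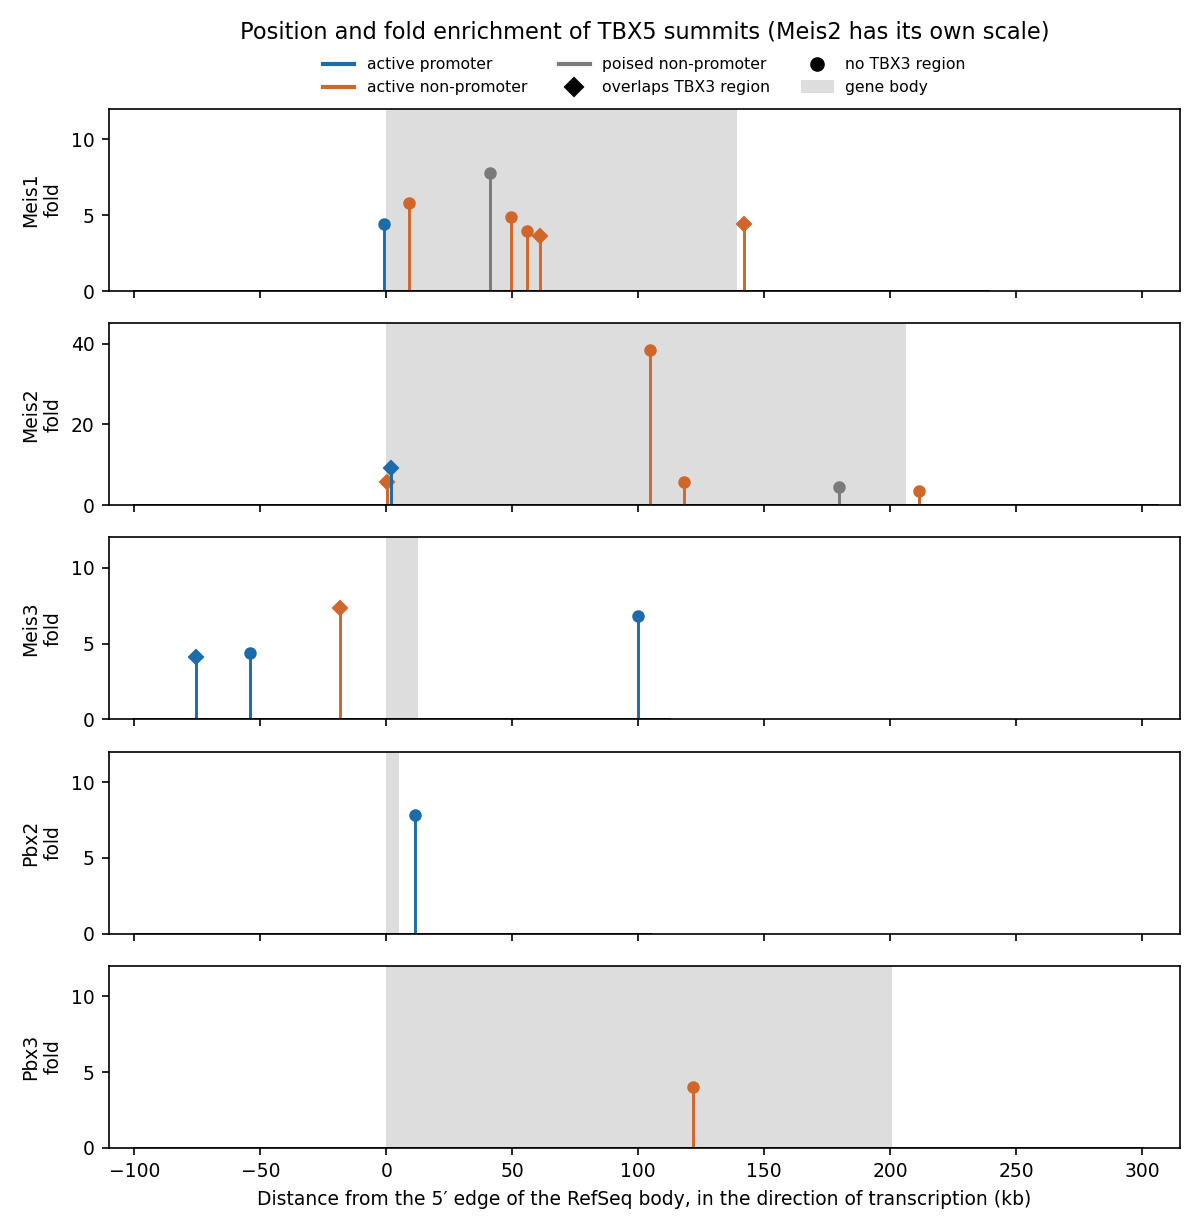
Fold enrichment (vertical axis) of each TBX5 summit against its distance in kb from the 5′ edge of the RefSeq gene body, in the direction of transcription, with the body shaded. Colours give the class in the authors' table and diamonds an overlap with a TBX3 region. Meis2 has its own vertical scale because its summit 104632 bp into the body reaches 38.3-fold.

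Against all protein-coding genes, 3.81% had as many summits within 100 kb as Meis1 or more, 6.48% as many as Meis2, 17.4% as many as Meis3 and 63.7% as many as Pbx2 and Pbx3. The median coding gene had 1 summit (quartiles 0 and 3). Long genes offer more room. Among the 1870 coding genes with bodies of 100 to 300 kb, the median was 2 summits (quartiles 1 and 4), 9.41% had at least 7, 13.6% had at least 6 and 42.3% had at most 1. Meis1 and Meis2 were thus in the upper part of genes of their size, and Pbx3, nearly as long as Meis2, lay at the lower quartile.

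**Figure D2:**
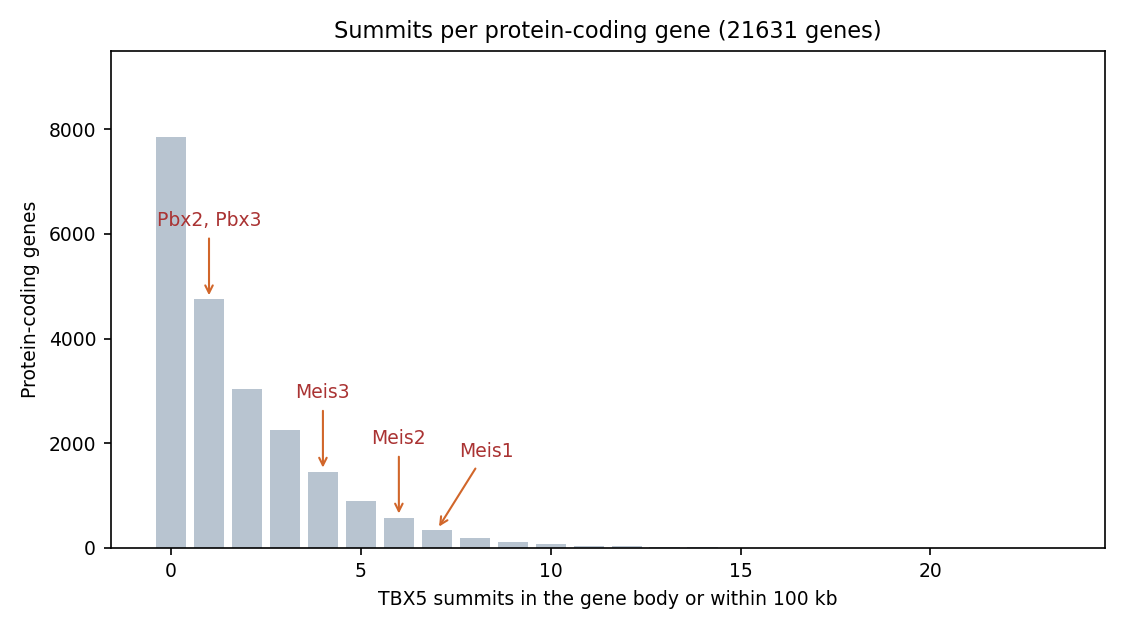
Number of protein-coding genes (vertical axis) by the number of TBX5 summits in the gene body or within 100 kb (horizontal axis). Arrows mark the 5 genes, with Pbx2 and Pbx3 at 1 summit, Meis3 at 4, Meis2 at 6 and Meis1 at 7.

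The strongest peak of the 19 lay inside Meis2, at 115962731 to 115963123 on chromosome 2. Its fold enrichment, the authors' ratio of ChIP fragments to local background at the summit, was 38.3 (95% Poisson interval 31.5 to 46.3, counting error only). The pileup was 107 ChIP fragments over a background of 1.82. Pileups and backgrounds throughout were solved from the deposited fold and −log10 p, and the ratio adds 1 to each. Of all 12436 peaks it ranked 99th by fold and 233rd by pileup, and 209 coding genes (0.966%) had a peak at least as strong within 100 kb. The peak lay 104632 bp downstream of the 5′ edge of the body, overlapped H3K4me1 and H3K27ac regions in both region files of each mark, and overlapped neither H3K4me3 nor TBX3 regions. H3K4me1 is a histone mark of enhancers, H3K27ac of active enhancers and promoters, and H3K4me3 of promoters. TBX3 is a related T-box factor, which in the heart marks the conduction system.

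The other Meis2 peaks were weaker, the next having 4.21 times less fold. That next peak lay near the gene start at 116065493 to 116066184, with 9.11-fold enrichment (7.07 to 11.5) from 66 fragments over a background of 6.36. The strongest peak thus had 1.62 times its pileup, and the start peak 3.50 times the background of the strongest. At 692 bp the start peak was the widest of the 19. It lay 624 bp upstream of the Meis2 window printed above, was in the promoter class and overlapped TBX3. A further peak 1669 bp away at 116067219 to 116067408 had 5.71-fold enrichment (3.63 to 8.59) and also overlapped TBX3. Its summit lay 80 bp from the start of G630016G05Rik, and the peak overlapped 56 bases of the window printed for that gene. The authors' table puts it 2247 bp upstream of a start and so outside the promoter class.

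Deeper in Meis2, 13656 bp beyond the strongest summit, stood a peak of 5.77-fold (3.50 to 9.05) at 115949096 to 115949354 with the same set of marks as the strongest. At 115887771 to 115887949 there was a peak of 4.41-fold (2.74 to 6.77) with H3K4me1 in 1 of 2 files and no H3K27ac, the class called poised. The weakest peak of all 19, 3.40-fold (1.88 to 5.74) from 12 fragments, lay 5198 bp outside the 3′ edge at 115855932 to 115856111. The distances in the authors' table place these 3 and the strongest peak relative to 1 start at 115872962, if read on the minus strand of Meis2. That position is 11698 bp from the 3′ edge of the body and 194575 bp from its 5′ edge. The table's 89943 bp for the strongest peak is thus no distance from the 5′ end of Meis2, and the other 2 Meis2 peaks refer to a start at 116065058.

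Meis1 carried the most summits, all of modest strength. Its folds ran from 3.61 to 7.81 with a median of 4.40, and their intervals overlapped throughout. In the body, 4 summits stood in a row, in the direction of transcription 8135, 6340 and 5405 bp apart. The first of these, at 18978240 to 18978474 on chromosome 11, was the strongest peak of the gene with 7.81-fold enrichment (5.31 to 11.1) from 29 fragments. It was the only Meis1 peak without H3K27ac, had H3K4me1 in 1 of 2 files and was classed as poised. The next, at 18970127 to 18970328, had 4.89-fold (2.71 to 8.27) from 12 fragments, and the one after it, at 18963862 to 18964089, 3.97-fold (2.41 to 6.23) from 17. Both overlapped H3K4me1 and H3K27ac in all files. The last, at 18958218 to 18958596, was the weakest of the gene with 3.61-fold (2.34 to 5.34) from 23 fragments over a background of 5.65. It overlapped a TBX3 region and, in both files, H3K4me3.

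Closer to the Meis1 start, a peak at 19010364 to 19010580 had 5.80-fold enrichment (3.52 to 9.10) and lay in the body of both Meis1 and the long noncoding RNA gene Gm16141, 2842 bp from a start of the latter. The 5 summits inside Meis1 spanned 52.0 kb. Upstream, at 19020388 to 19020572, a promoter-class peak had 4.39-fold (2.82 to 6.55) from 22 fragments over a background of 4.24. Its summit lay 1496 bp upstream of the listed start and 814 bp outside the body, and the peak ended 1169 bp short of the Meis1 window printed above. Beyond the 3′ end, 2777 bp outside the body, a peak at 18877526 to 18877888 had 4.40-fold (2.67 to 6.90) and overlapped TBX3. It covered all 300 bases of the printed 8430419K02Rik window, with its summit 41 bp from that gene's start. The authors' distance for it, 141318 bp, counts from the Meis1 start, so the peak stands in the non-promoter class.

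The Meis3 window, on chromosome 7, held no summit in the gene or within 10 kb of it. Of its 4 peaks, 3 lay at starts of neighbours. A peak at 16098253 to 16098637 (4.11-fold, 2.78 to 5.88) covered the promoter window of Napa, an adaptor of vesicle fusion, and overlapped TBX3. One at 16119818 to 16120071 (4.39-fold, 2.82 to 6.55) had its summit 102 bp from the start of Kptn, an actin-associated protein. One at 16273784 to 16273984 (6.81-fold, 4.53 to 9.86) lay 198 bp upstream of Inafm1, with its summit inside the body of another coding gene, Ccdc9. The remaining peak, at 16155610 to 16155802, was the strongest with 7.36-fold (4.63 to 11.2) from 20 fragments and overlapped TBX3, H3K4me1 and H3K27ac. It was the one that the authors' distances tie to Meis3, 19702 bp upstream of the start, but it lay inside Slc8a2, a sodium-calcium exchanger gene. Position alone does not say which of these genes, if any, a peak acts on, and the Meis3 window touched 9 other coding genes.

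Each Pbx window held 1 peak. That of Pbx2 lay 6327 bp beyond the 3′ end of the gene at 34603590 to 34603944 on chromosome 17. It had 29 fragments at its summit and 7.81-fold enrichment (5.31 to 11.1). Its summit was 166 bp from the edge of Rnf5, a ubiquitin ligase gene, which equals the authors' distance to a start, and 468 bp from the edge of Agpat1, an enzyme gene of phospholipid synthesis. The window touched 12 other coding genes, and no summit fell in Pbx2 itself. The Pbx3 peak was intragenic, 121850 bp from the start, at 34250069 to 34250265 on chromosome 2. With 11 fragments it had the lowest pileup of the 19, 4.03-fold enrichment (2.18 to 6.95) and a −log10 q of 2.92. Where a gene start has no summit here, no peak was called on the pooled fragments, and binding below that threshold was not detectable at this depth.

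**Figure D3:**
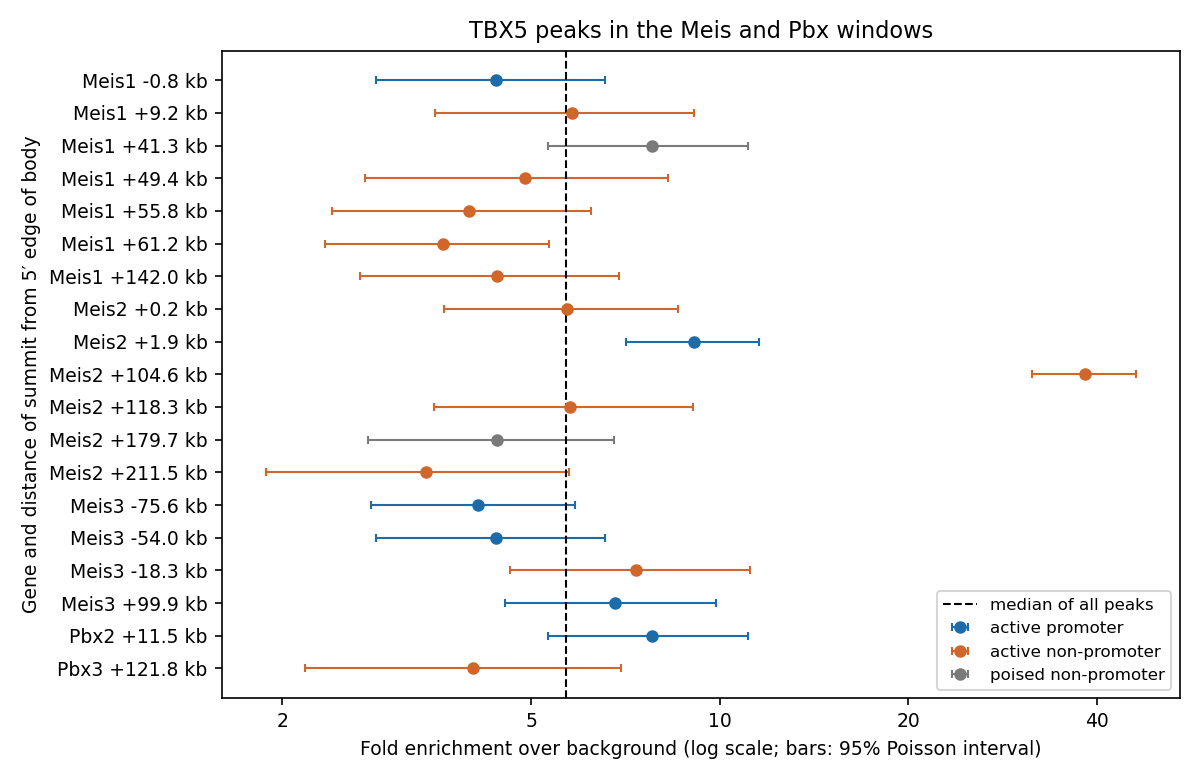
Fold enrichment of each of the 19 peaks on a log scale, named by gene and by the distance of the summit from the 5′ edge of the gene body (minus is upstream). Bars are 95% Poisson intervals and cover counting error of the pileup only. The Meis2 peak at 38.3-fold stands apart, and its interval overlaps with none of the others.

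Apart from the strongest Meis2 peak, the 19 peaks resembled the list as a whole in strength. Their median fold was 4.89 (order-statistic 95% interval 4.11 to 7.36) against 5.67 for all peaks, and 9 of the 19 lay at or above that median. A −log10 q of at least 10 was reached by 6 of 19 (31.6%, against 41.5% of all peaks). The median pileup was 21 fragments against 22, and the median width 228 bp against 251 bp. Another summit lay within 10 kb of 6 of the 19, against 32.9% of all peaks. Of the 6 promoter-class peaks (31.6%, against 24.6%), 1 was at Meis1, 1 at Meis2, and 4 at starts of other genes in the Meis3 and Pbx2 windows.

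Most of the 19 peaks overlapped regions of active marks (see the grid of marks per peak). The sources used here do not give the tissue or stage of the mark and TBX3 regions. H3K27ac marked 17 (89.5%, exact Clopper-Pearson 95% interval 66.9 to 98.7) against 73.5% of all peaks, the exceptions being the poised peaks in Meis1 and Meis2. H3K9ac, another mark of active promoters and enhancers, was on 13 (68.4%, 43.4 to 87.4) against 46%, and H3K4me1 on 11 (57.9%, 33.5 to 79.7) against 72.3%. H3K4me3, like H3K9ac not among the planned results, was on 12 (63.2%, 38.4 to 83.7) against 31.8%, each time in both region files. Of these 12 peaks, 4 lay at the starts of Napa, Kptn, Inafm1 and Rnf5. Inside the gene bodies H3K4me3 was on 5 of 11 peaks (45.5%, 16.7 to 76.6), an interval that includes the share of all peaks. H3K27me3, the Polycomb mark, was on 0 of 19, which allows a share of up to 17.6%, against 1.63% of all peaks. TBX3 regions overlapped 6 peaks (31.6%, 12.6 to 56.6), 2 each in the windows of Meis1, Meis2 and Meis3, against 27%. Of these 6, 5 also had H3K4me3, as had 51.9% of all TBX3-overlapping peaks. The intervals treat peaks as independent, which neighbours are not.

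**Figure D4:**
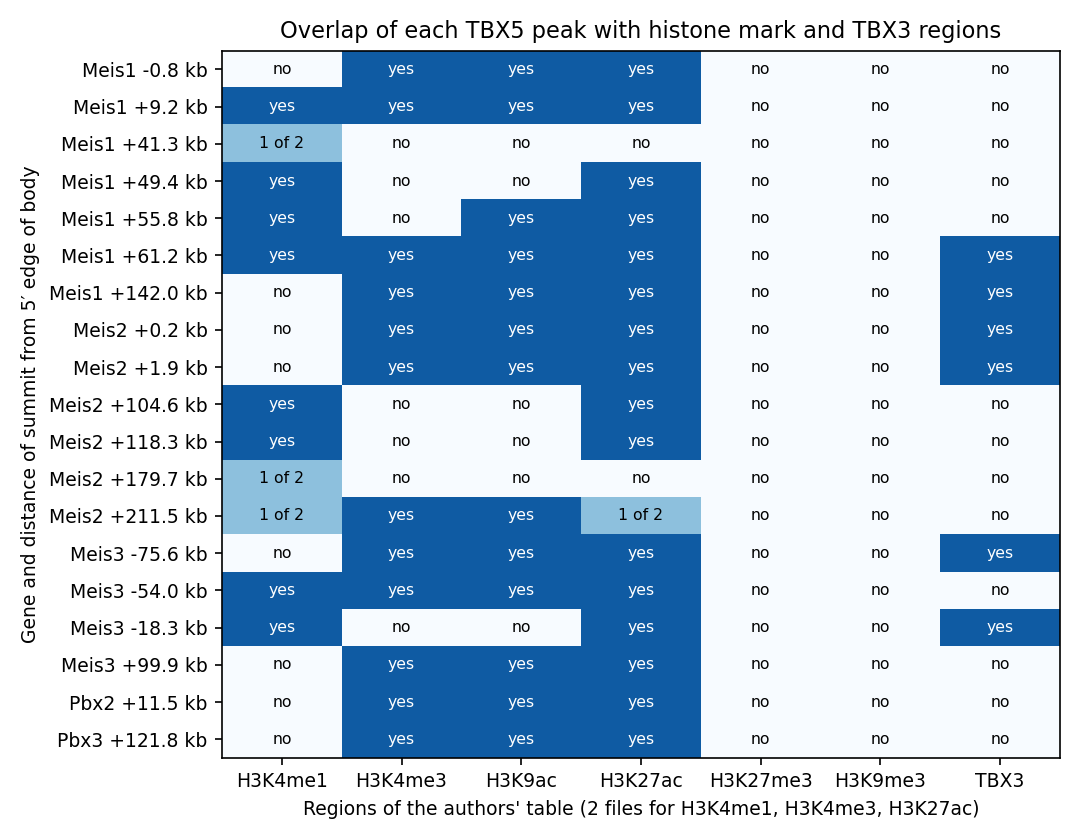
Overlap of each of the 19 peaks (rows, named by gene and distance from the 5′ edge of the body) with histone mark and TBX3 regions (columns). For marks with 2 region files, "yes" means both and "1 of 2" means 1 of them. H3K4me3 and H3K9ac mark peaks in all 5 windows, and the H3K27me3 and H3K9me3 columns are empty.

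The marks and the promoter class did not always go together. Among the 13 non-promoter peaks 6 overlapped H3K4me3 (46.2%, 19.2 to 74.9), against 12.6% of the 9381 non-promoter peaks in the list. The pattern of H3K4me3 and H3K27ac with neither H3K4me1 nor H3K27me3 was found on 3 of them (23.1%, 5.04 to 53.8), against 1.28%. This pattern was chosen after the values were seen. The 3 were the peak at the 8430419K02Rik start beyond Meis1, the peak at the G630016G05Rik start at Meis2 and the single peak inside Pbx3. For the first 2 a listed start of a noncoding gene lay within 80 bp. For the Pbx3 peak the nearest start in the RefSeq table was 142460 bp away, that of C230014O12Rik, in a table that holds no window for Pbx3 itself.

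**Figure D5:**
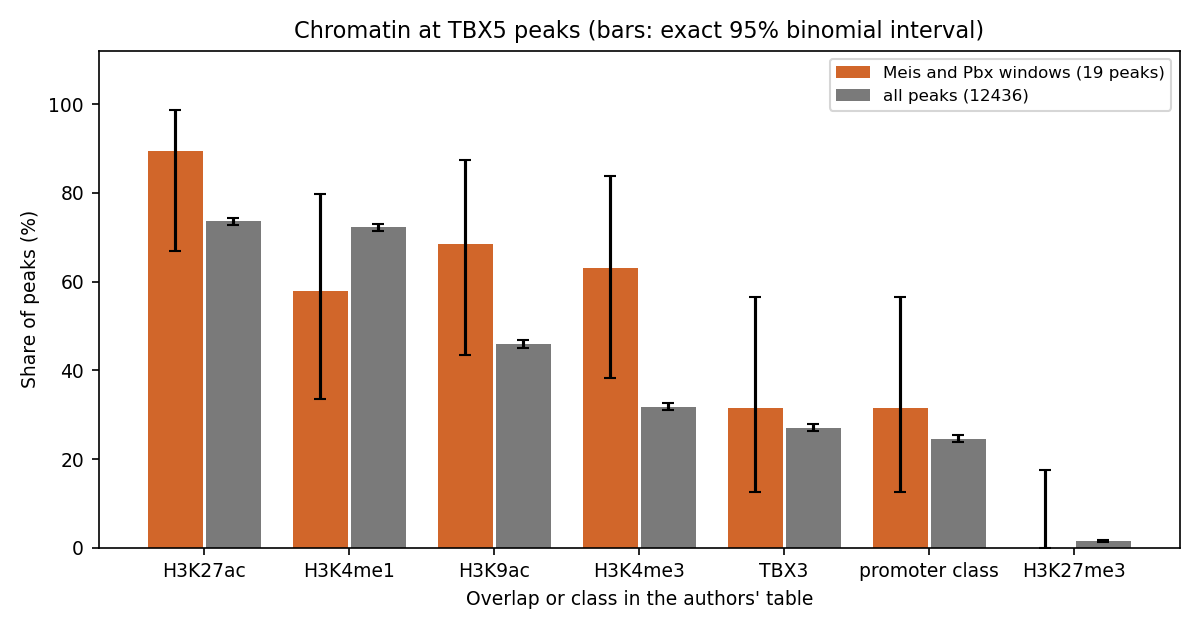
Share of peaks in percent that overlap each mark or TBX3, or lie in the promoter class, for the 19 peaks of the Meis and Pbx windows and for all 12436 peaks. Error bars are exact 95% binomial intervals. The interval of the 19 peaks includes the share of all peaks except for H3K4me3, where it runs from 38.4 to 83.7 against 31.8. Inside the gene bodies alone (5 of 11 peaks) the H3K4me3 interval includes it too. The H3K4me3 and H3K9ac shares were not among the planned results.

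Other genes of the TALE class were read under the same rule. Of 10 genes, 9 had a summit within 100 kb, with 26 peaks in all and a median fold of 6.79. Among the closer relatives of MEIS, Pknox1 had 3 summits (strongest 7.32-fold, 4.56 to 11.2) and Pknox2 2 (5.38-fold, 3.26 to 8.43). Of the TGIF repressor genes, Tgif2 had 3 (8.86-fold, 5.64 to 13.3) and Tgif1 none. The Iroquois genes Irx1 to Irx6 had 1 to 4 summits each, and Irx5 had the strongest peak, 40.4-fold (33.7 to 48.1), 33843 bp outside its body. It was close to the Meis2 peak in fold, with intervals that overlapped, whereas the latter lay inside its gene. Of these 26 peaks 2 overlapped TBX3 (7.69%, 0.946 to 25.1) and 18 had H3K27ac (69.2%).

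The windows of Gata4, Gata5, Gata6, their cofactor genes Zfpm1 and Zfpm2 and Nkx2-5, which encode core factors of the cardiac programme, held 36 peaks at 19.7 per Mb (13.8 to 27.3). Their median fold was 5.63, 12 overlapped TBX3 (33.3%, 18.6 to 51.0) and 33 had H3K27ac (91.7%). The windows of the Iroquois and Hand genes held 21 peaks at 12.8 per Mb (7.90 to 19.5), of which 1 overlapped TBX3 (4.76%, 0.120 to 23.8). The Iroquois genes are also among the TALE genes above, so their peaks are counted in both lists. The peak that overlapped TBX3 lay in the Irx1 window. For density and TBX3 share, the Meis and Pbx intervals overlapped with those of the GATA list and of the Iroquois and Hand list. No difference between the groups was tested. At the edge of the rule, the farthest summit inside was the Inafm1 peak, 87380 bp from Meis3 with 6.81-fold enrichment. The nearest outside lay 100064 bp from Meis3 with 4.63-fold, and the next 123760 bp from Meis1 with 4.44-fold.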

How the data were processed

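The study measured TBX5 binding in hearts by ChIP-seq, with 2 ChIP samples and 1 input. Bowtie2, SAMtools, MACS2 and ChIPseeker with build mm10 are named in the submitters' processing notes, without versions or settings. The file names and the labels say that peaks come from pooled TBX5 samples. The deposited fold ratio, the −log10 p and −log10 q and the score (10 times −log10 q, truncated) are the authors' values per pooled peak, used only within this list. All 12436 peaks had the same positions in the 3 deposited files. The deposited table also gives distances to starts and overlaps with histone mark and TBX3 regions. The sources used here do not give the tissue, stage or overlap rule of those regions. A mark counted if either of its region files had it.

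The sources used here give no library totals. The pileup was solved as the whole number that fits fold = (pileup + 1)/(background + 1) and −log10 p as a Poisson tail, within 0.0005 for all 12436 peaks. On 1000 simulated peaks made with these same formulas it was recovered in 100% of cases. That checks the solving step only, not whether the formulas hold for the deposited values. Poisson intervals hold the background fixed and cover counting error of pooled fragments only. PCR copies are not independent molecules.

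Gene bodies and promoter windows are RefSeq's for GRCm38.p6, and all 5 symbols matched a body. Positions are 1-based on mm10. Every peak of Meis3, Pbx2 and Pbx3 is named, as are those of Meis1 and Meis2. The rule asked for all peaks of a gene with at most 6, and otherwise for the 6 strongest, the weakest, those nearest the body's ends and promoter-class peaks in the body. The members and lists were chosen with earlier results of these data known, so no p is given over them. Alternatives changed the flank, the peak threshold, the assignment by summit, the rule for marks and the use of promoter peaks. The shares for H3K4me3 and H3K9ac were not among the planned results, and their alternatives were added after seeing the data. Scripts ran under Python 3.11.15 with scipy 1.17.1, numpy 2.4.6 and pandas 2.3.3, and figures were drawn with matplotlib 3.10.9.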

Additional observations from a re-analysis of the deposited data

How the results depend on the processing

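Of 70 values under the alternatives, 61 stayed within the counting interval of the reported value (for the count of summits, within 1.5 times) and 9 did not. The 19 summits became 11 without a flank, 6 with a −log10 q of at least 10 and 9 with a fold at or above the median of all peaks. The density of 12.2 per Mb became 22.6 with a 10 kb flank, 19.5 without a flank, 3.84 with the stricter q and 5.76 with the stricter fold. These 2 thresholds remove peaks by construction, and the flanks change the length searched. The median fold of 4.89 became 7.81 with the stricter q, where the median of all peaks was 8.89. The promoter share of 31.6% became 9.09% without a flank, which leaves out 4 peaks at starts of neighbouring genes and the Meis1 promoter peak, 814 bp outside the body. The shares for H3K27ac, H3K4me1, H3K27me3, TBX3, H3K4me3 and H3K9ac stayed within their intervals under each alternative run, intervals that are wide with 19 peaks. The shares for H3K4me3 and H3K9ac were not among the planned results, and their alternatives were chosen after seeing the data. The H3K4me3 interval lay above the share of all peaks with a 10 kb flank (32.3 to 83.7 against 31.8). The same held with the stricter fold (21.2 to 86.3 against 17.2) and for overlap of at least 1 base (40.8 to 84.6 against 31.8). It held too for marks in both region files (38.4 to 83.7 against 27.6) and for non-promoter peaks (19.2 to 74.9 against 12.6). The interval included the share with a 50 kb flank (29.9 to 80.2) and without a flank (16.7 to 76.6). With the stricter q it also did (11.8 to 88.2, against 21.1). No paired analysis was possible because the peaks were called on pooled samples, and for the same reason no replicate could be left out.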
